A study of Drosophila melanogaster with 12 samples.

Results

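At the close of *Drosophila* embryogenesis, 195 of 14977 genes surged in mRNA-seq: each had at least 50 FPKM (fragments per kilobase of gene and per size of the library) at 18 to 24 h and at least 10 times its level at 12 to 18 h. They were led by secreted digestive enzymes, above all 15 Jonah serine proteases. The level and the fold were met by 202 genes, or 1.35% of the table and 8.80% of the 2296 genes of at least 50 FPKM at 18 to 24 h. Of these, 7 genes of the families of cuticle proteins and odorant-binding proteins (*Cpr11B*, *Cpr47Eb*, *Cpr49Ad*, *Cpr65Ay*, *Cpr67B*, *Obp56a* and *TwdlO*) were set aside by name. The members were chosen by their FPKM in the T5 and T6 mRNA-seq libraries, so the rise from T5 to T6 in mRNA-seq is a description and supports nothing. Of the 195 messages, 51 belonged to 12 named families with at least 2 members, and 24 had other names, given by the table or by RefSeq. The other 120 have only a CG number in both.

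Late in embryogenesis the gut of the fly becomes a closed tube of absorptive and secretory cells, in time for the first meal of the larva. The larval midgut secretes trypsin-like and other serine proteases, amylase, lysozymes and peptidoglycan amidases into its lumen, and a chitinous peritrophic matrix built of peritrophins and mucins keeps the food apart from the cells. Enzymes that detoxify plant compounds and proteins that bind metal ions are also known from the gut, the fat body and the Malpighian tubules, the renal organs of the fly.

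All libraries came from embryos that were mass-collected, so that each RNA sample pools many animals, and no mutant or treated group was set beside them. Collections of 0 to 45 min (called T1) and 45 to 90 min (T2) cover the maternal phase, and those of 1.5 to 6 h (T3), 6 to 12 h (T4), 12 to 18 h (T5) and 18 to 24 h (T6) the time after zygotic transcription began, with *Canton S* given as the strain by the paper and the growth protocol and yw by the strain entry of the sample records. Poly(A) RNA of each timepoint went into 1 mRNA-seq library and, as fragments cross-linked to an antibody against m6A (Abcam ab151230) and immunoprecipitated, into 1 miCLIP library. The miCLIP signal of a gene therefore reflects both how much of it there is and how much m6A it carries. With 1 library per assay and timepoint no difference has a replicate check, and every comparison below describes these 12 libraries.

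The mRNA-seq libraries held between 23127955 (T2) and 25486971 (T4) reads on genes, and the miCLIP libraries between 4251686 (T2) and 14484576 (T3), with 6210092 in T6. The T6 libraries of the 2 assays stood apart from each other in a way that touches these messages. Over the 4802 genes of at least 1 FPKM in all 12 libraries, T6 miCLIP ranked genes more like T5 mRNA-seq (Spearman 0.78) than like T6 mRNA-seq (0.64). T4 mRNA-seq (0.70) was also nearer to it than T6 mRNA-seq. Which of the T6 libraries differs cannot be told from these values. By contrast, T3, T4 and T5 miCLIP were each nearest to the mRNA-seq of their own timepoint (0.87, 0.87 and 0.77). T1 miCLIP was also nearest to its own timepoint (0.59), and T2 miCLIP to T1 mRNA-seq (0.81, with 0.79 for T2). The 140 genes with the opposite pattern in mRNA-seq, with at least 50 FPKM in T5 and at least 10 times their T6 level, had a median of 4.61 FPKM in T6 mRNA-seq and of 94.7 FPKM in T6 miCLIP. *Gasp*, a chitin-binding protein of the cuticle and trachea, had 914 FPKM in T5 and 58.8 FPKM in T6 mRNA-seq, but 1263 and 1108 FPKM in miCLIP. Whether the T6 miCLIP library comes from the same timepoint and RNA as T6 mRNA-seq was not tested, and its values below are those of the library labelled 18 to 24 h. The main counts that rest on it are followed by the same counts in T5.

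Markers of the midgut were present in both late timepoints and moved little beside these messages. Their 4 genes (*GATAe*, *mex1*, *Myo31DF* and *Myo61F*) summed to 80.8 FPKM in T4, 297 FPKM in T5 and 405 FPKM in T6 mRNA-seq, and to 203 and 238 FPKM in T5 and T6 miCLIP. *GATAe*, a GATA factor of the endoderm, had 42.3 FPKM in T5 and 25.5 FPKM in T6 mRNA-seq. *mex1*, a marker of midgut enterocytes, had 92.5 and 134 FPKM. All 6 fat body markers in the table lay below 1 FPKM in T6 mRNA-seq. They are the larval serum protein genes *Lsp1alpha*, *Lsp1beta*, *Lsp1gamma* and *Lsp2*, with *Fbp1* and *Adh*, and do not tell whether fat body was present. The 3 muscle markers summed to 13239 FPKM in T5 and 12238 FPKM in T6. The 5 epidermis and cuticle markers summed to 1086 FPKM in T5 and 122 FPKM in T6 mRNA-seq, and the 5 tracheal markers to 1559 and 290 FPKM. In RNA of whole embryos, more cells of a type and more RNA per cell cannot be told apart.

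The 195 messages were a small share of the reads until the last timepoint. From T1 to T5 they held 0.0675%, 0.0722%, 0.146%, 0.0502% and 0.214% of the mRNA-seq reads, and in T6 they held 5.23%, or 1235225 of 23640504 reads (exact 95% interval 5.22% to 5.23%, counting error only). On the scale of summed FPKM, which counts short genes more, the T6 share was 7.74%. Their median level was 5.97 FPKM in T5 and 178 FPKM in T6. Within the group, 19 had at least 1000 FPKM in T6, 120 had 100 to 1000 FPKM and 56 had 50 to 100 FPKM. The median fold was 33.9, with 69 messages at 50-fold or more and 16 at 100-fold or more. The plot of the messages in every library shows this shape in mRNA-seq and the miCLIP levels beside it.

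**Figure D1:**
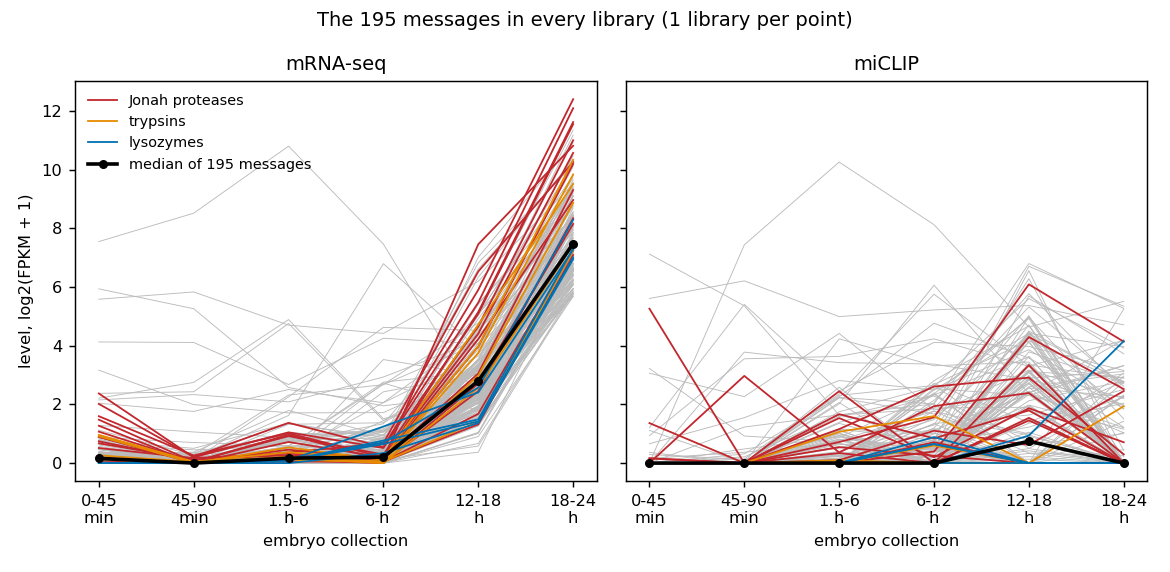
Level of the 195 messages in log2(FPKM + 1) on the vertical axis against the 6 embryo collections, in mRNA-seq (left) and miCLIP (right), with 1 line per message, the Jonah proteases, trypsins and lysozymes in colour and the median in black. In mRNA-seq the median climbs from 5.97 FPKM at 12 to 18 h to 178 FPKM at 18 to 24 h, and in miCLIP it is 0 FPKM at 18 to 24 h.

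Near the limits of the rule the choice was narrow. *CG6839* entered with 50.2 FPKM in T6, and *Amy-d*, the second amylase gene, stayed out with 49.0 FPKM in T6 and 1.96 FPKM in T5. *CG15423* entered with a fold of 10.01 and *CG14566* stayed out with 9.93. *Gpdh* (now *Gpdh1*), glycerol-3-phosphate dehydrogenase, entered with a fold of 10.1, and *Fst*, a message known to be induced by cold in adult flies, with 10.2.

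The Jonah proteases, secreted chymotrypsin-like enzymes of the larval gut, held the top of the list. Of 16 genes in the table, 15 met the rule, and the remaining gene, *Jon66Cii*, had 0.305 FPKM in T5 and 17.7 FPKM in T6. Together the 15 took 384641 reads, or 1.63% of the T6 mRNA-seq library and 31.1% of the reads on all 195 messages. From T1 to T5 they had taken 626, 29, 220, 72 and 9926 reads.

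The mRNA-seq levels of *Jon99Cii* from T1 to T6 were 3.05, 0.157, 1.59, 0.464, 59.1 and 5430 FPKM. It ranked at place 21 of all genes in T6. *Jon99Fi* followed with 4.19, 0.145, 1.07, 0.428, 43.5 and 4390 FPKM, *Jon99Fii* reached 3166 FPKM and *Jon99Ciii* 3007 FPKM. The next, *Jon25Biii* at 2057 FPKM, *Jon25Bi* at 1527 FPKM and *Jon25Bii* at 1174 FPKM, were 84.8-fold, 75.1-fold and 79.7-fold higher in T6 than in T5. Most of the family thus shared a similar fold at levels that spread widely, from 136 FPKM (*Jon66Ci*) upwards, around a median fold of 79.7.

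The lowest folds of the family came from 3 genes. *Jon65Aiv* had 175 FPKM in T5 and 1804 FPKM in T6, a fold of 10.3. *Jon65Aiii* had 91.6 and 1231 FPKM, a fold of 13.4, and *Jon99Ci* had 17.8 and 500.3 FPKM, a fold of 28.1. The neighbours of *Jon65Aiv* and *Jon65Aiii* in the same run of 4 genes, *Jon65Ai* and *Jon65Aii*, had 7.35 and 2.20 FPKM in T5, with folds of 86.5 and 68.8. The Jonah genes of 1 cluster are alike in sequence, and how reads that fit more than 1 copy were counted is not given in the sources used here, so levels of single copies are uncertain.

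Trypsins, secreted endopeptidases that cut after basic residues, were counted by symbol, and 6 of 11 such genes met the rule. *CG30025* and *CG30031*, members that lie in the same run of neighbouring genes, are not in this count. *epsilonTry* had 14.8 FPKM in T5 and 1292 FPKM in T6, *betaTry* 12.5 and 917 FPKM, *alphaTry* 25.3 and 731 FPKM, *gammaTry* 6.91 and 468 FPKM, *thetaTry* 4.93 and 171 FPKM, and *deltaTry* 1.67 and 150 FPKM. All 6 lay below 1 FPKM in each of T1 to T4. The other 5 trypsin genes missed the fold: *zetaTry* went from 87.7 to 382 FPKM, *lambdaTry* from 75.3 to 295 FPKM, *kappaTry* from 46.5 to 135 FPKM, *etaTry* from 22.3 to 60.6 FPKM and *iotaTry* from 10.1 to 43.7 FPKM. The alpha to delta trypsins are near-identical copies, and the split of reads between them is uncertain.

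Enzymes that act on bacterial cell walls formed a second set. The 5 lysozymes of the group had T6 levels of 314 FPKM (*LysB*), 159 FPKM (*LysD*), 155 FPKM (*LysS*), 129 FPKM (*LysC*) and 123 FPKM (*LysE*), after 1.58 to 4.96 FPKM in T5. *LysP* and *LysX*, the remaining lysozymes in the table, had 0.485 and 0.106 FPKM in T6. All 3 PGRP-SC genes, which encode secreted amidases that cleave peptidoglycan, were in the group: *PGRP-SC2* went from 2.78 to 269 FPKM, *PGRP-SC1b* from 1.96 to 119.7 FPKM and *PGRP-SC1a* from 1.04 to 119 FPKM. *LysB*, *LysC*, *LysD* and *LysE*, and likewise the PGRP-SC1 pair, are near-identical copies whose split of reads is uncertain.

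Components of the peritrophic matrix and mucus joined them in part. *Peritrophin-15a* had 8.55 FPKM in T5 and 556 FPKM in T6, and *Peritrophin-15b* 2.61 and 138 FPKM, whereas *Peritrophin-A* went from 140 to 36.9 FPKM. Of 13 mucin genes 3 met the rule: *Muc18B* (41.8 to 606 FPKM), *Muc96D* (1.48 to 145 FPKM) and *Muc11A* (4.16 to 83.9 FPKM). *Muc26B* reached 864 FPKM but from 96.2 FPKM, and *Muc91C* went the other way, from 134 to 1.37 FPKM.

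Alkaline phosphatases, which release phosphate at the cell surface, gave 5 of 10 genes. *CG3264* (named *Alp8* by RefSeq) had 3.26 FPKM in T5 and 507 FPKM in T6, a fold of 155. *CG3292* (*Alp7*) had 2.08 and 94.5 FPKM, *Alp4* 9.41 and 94.4 FPKM, *CG10592* (*Alp10*) 1.43 and 75.1 FPKM, and *CG5150* (*Alp9*) 1.42 and 58.8 FPKM. *Alp4* is known from the Malpighian tubule, whose other markers were *Irk3* at 19.9 FPKM and *Uro* at 0.236 FPKM in T6.

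Detoxification enzymes were a minority of their families. Of 84 cytochrome P450 genes 4 met the rule: *Cyp6a2* (8.04 to 315 FPKM), *Cyp6a8* (22.0 to 231 FPKM), *Cyp6w1* (1.81 to 226 FPKM) and *Cyp12a4* (4.90 to 152 FPKM). Of 35 glutathione S-transferases there were *GstD7* (5.18 to 331 FPKM) and *GstD2* (6.70 to 145 FPKM), while *GstD1* was higher at 939 FPKM but had 249 FPKM in T5. *Ugt37c1*, a glycosyltransferase that conjugates small molecules, had 7.14 and 95.9 FPKM. The metal-binding metallothioneins *MtnE* and *MtnD* went from 6.69 to 284 FPKM and from 2.64 to 199 FPKM. *MtnA*, the most abundant of them, went from 812 to 2658 FPKM and so fell short of the fold. The ABC transporters *Mdr50* and *Mdr49* reached 83.6 and 68.7 FPKM. *Ag5r2* and *Ag5r*, which encode secreted proteins of the antigen 5 family, reached 846 and 142 FPKM.

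**Figure D2:**
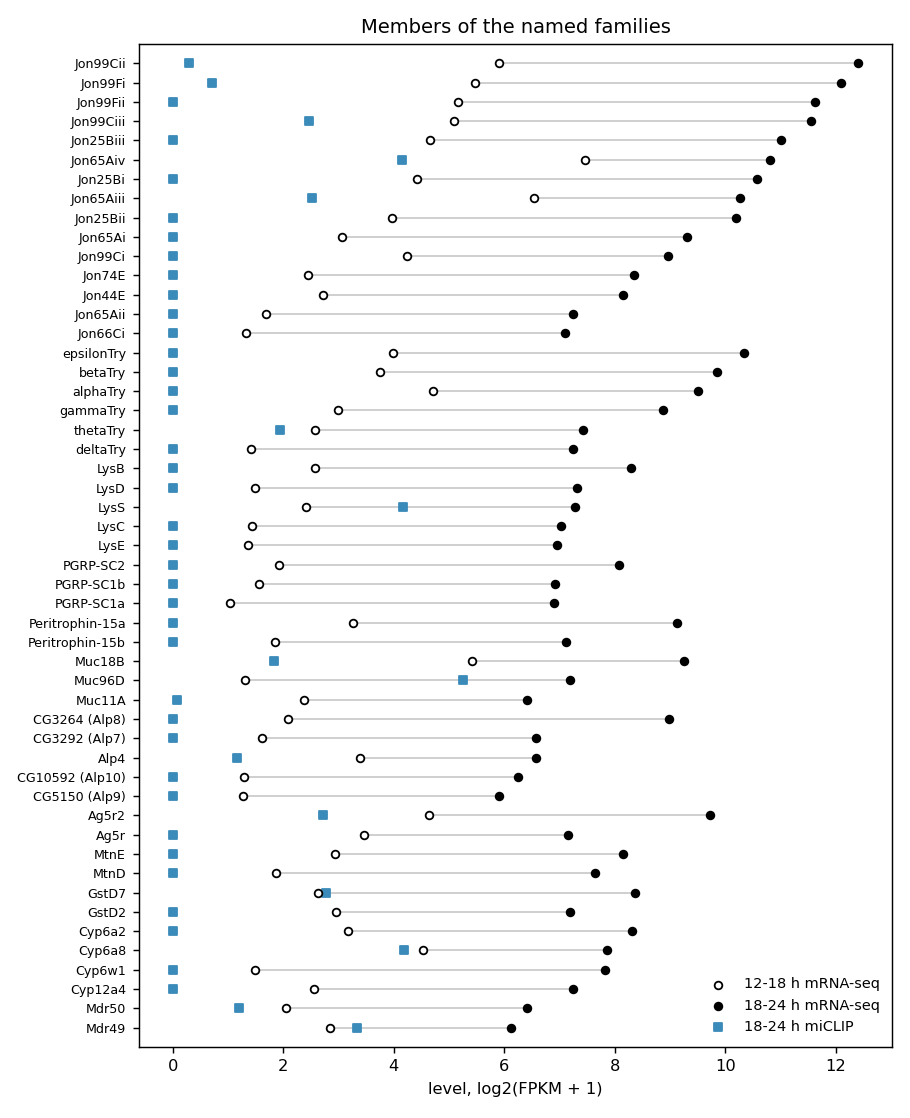
Level in log2(FPKM + 1) of the 51 members of the named families in mRNA-seq at 12 to 18 h (open circles) and 18 to 24 h (filled circles) and in miCLIP at 18 to 24 h (squares), 1 library each. Of the 51 squares 35 lie at 0, and *Muc96D*, *LysS*, *Cyp6a8* and *Jon65Aiv* are among those that do not.

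The 24 messages with other names form no family, and those described here were picked after their values were seen. *Amy-p*, an amylase, had 2.11 FPKM in T5 and 60.4 FPKM in T6, and *LManVI*, a lysosomal alpha-mannosidase, 8.73 and 273 FPKM. Among enzymes that break down amino acids or use their methyl groups, *Gnmt*, glycine N-methyltransferase, went from 10.4 to 330.1 FPKM, *CG11796* (*Hpd*), 4-hydroxyphenylpyruvate dioxygenase, from 11.5 to 185 FPKM, *CG1461* (*Tat*), tyrosine aminotransferase, from 2.56 to 56.1 FPKM, and *CG5955* (*Tdh*), threonine dehydrogenase, from 4.37 to 50.6 FPKM. Solute carriers were represented by *MFS9* (124 FPKM in T6), *Rh50* of the ammonium transporter family (82.1 FPKM) and the phosphate carrier *NaPi-T* (54.6 FPKM).

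*Nplp4*, a neuropeptide-like precursor, had the largest difference on the log2(FPKM + 1) scale, 7.37, from 3.59 to 759 FPKM. *CG8628* (*Acbp3*), an acyl-CoA-binding protein, reached 802 FPKM, *CG11852* (*Jhbp7*), of a family that binds juvenile hormone, 466 FPKM, and *Cht9*, a member of the chitinase family, 276 FPKM. *Pig1*, a gene of the salivary gland, reached 178 FPKM, while the glue genes *Sgs3*, *Sgs7* and *Sgs8* of the same gland had 0.0537, 1.67 and 0.996 FPKM in T6. The other markers used for this gland, *fkh* and *CrebA*, were present in T6 mRNA-seq, at 17.9 and 10.01 FPKM.

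The 120 messages known by CG numbers alone spanned 50.2 to 2616 FPKM in T6 with a median of 171 FPKM. *CG7299*, *CG42815* and *CG11911* reached 2616, 2326 and 1934 FPKM from 33.7, 23.8 and 128 FPKM. The largest fold of all, 409, belonged to *CG9759*, which had no read in T1 to T4 mRNA-seq, 0.293 FPKM in T5 and 119.7 FPKM in T6. *CG11300* went from 4.90 to 555 FPKM and *CG32188* from 3.45 to 415 FPKM, a difference of 6.56 and 6.55 on the log2(FPKM + 1) scale. Neither the files nor the annotation used here gives these genes a function.

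Lists of the wider pathways, chosen with earlier results of these data known, put the group in context. Over all 10642 genes of at least 1 FPKM in T5 or T6 mRNA-seq, 1724 were over 2-fold higher in T6, 1113 were over 2-fold lower and the median difference was 0.13 on the log2(FPKM + 1) scale. The sum of FPKM was higher in T6 than in T5, and with both brought to 1 sum, a shift of -0.44 (log2, before 1 FPKM is added) for every gene, 1114 were higher and 1842 lower. Each list is given below as deposited, over its genes of at least 1 FPKM. All 28 gut serine proteases were over 2-fold higher (median 5.68), including *yip7* (88.5 to 580 FPKM), which missed the fold, and 27 were so with equal sums. The 5 lysozymes (median 5.60) and 5 metallothioneins (median 4.66) were over 2-fold higher under both scalings. Of 13 genes for the peritrophic matrix and mucins 10 were higher and 2 lower (median 2.31).

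Not all digestive lists had this pattern. Of 13 carbohydrases 7 were over 2-fold higher and 0 lower (median 1.64), with 1 lower at equal sums. Of 5 lipases 1 was higher (*Lip3*, 0.370 to 4.45 FPKM) and 2 were lower, among them *Lip1* (83.1 to 2.24 FPKM), and at equal sums 3 were lower. Of 98 detoxification genes 51 were higher and 7 lower (median 1.07), against 36 and 14 at equal sums. Of 9 sterol carriers 5 were higher and 1 lower (median 1.18), against 3 and 3. Of 13 chitinases and relatives 3 were higher and 2 lower (median 0.18), and of 17 immune genes 7 were higher, the PGRP-SC genes among them, and 4 lower (median 0.26), against 5 and 5 at equal sums. These counts use the same 2 libraries as the rule, and the lists share members with the group.

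Before 12 h most of these messages were barely present. The rule did not use these libraries, but it did limit T5, and the genes set beside the messages were not matched on T5 level. 154 of the 195 (79.0%) were below 1 FPKM in each of T1 to T4 mRNA-seq, beside 38.7% of all genes and 8.52% of the 2101 other genes of at least 50 FPKM in T6. At 0.5 FPKM the number was 120 and at 5 FPKM it was 180. In T5, which the rule did use, 191 of them had at least 1 FPKM and 56 at least 10 FPKM. T6 was the highest of the 6 mRNA-seq libraries for 194, a count largely set by the rule.

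The exception, *CG13427*, was foremost a message of the early embryo. Its mRNA-seq levels from T1 to T6 were 187, 366, 1791, 176, 3.41 and 78.2 FPKM. In miCLIP it had no read in T1 and then 173, 1229, 279, 23.9 and 44.7 FPKM. Its lowest mRNA-seq level was thus that of T5, and 8 other messages also had at least 10 FPKM before 12 h.

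*CG11899* was highest among these 8 at the start, with 60.4, 37.4, 4.97, 2.87, 4.09 and 83.0 FPKM from T1 to T6. *CG7296* had its highest level before 12 h in T4, at 110 FPKM, after 2.08 FPKM in T3 and before 13.8 and 747 FPKM in T5 and T6. *CG43085* and *Mdr49* had their highest level before 12 h in T3, at 28.7 and 26.1 FPKM, before the low of T4 (1.85 and 1.74 FPKM). In T6 they had 74.5 and 68.7 FPKM. *Gpdh* was present throughout, at 47.1, 56.1, 25.1, 20.4, 72.4 and 732 FPKM. *Cyp6a8*, *CG14377* and *CG31103* had 23.7, 18.1 and 10.6 FPKM in T4. In T4 miCLIP, *CG7296* had 66.0 FPKM, *Cyp6a8* 53.1 FPKM and *CG14377* 16.3 FPKM.

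**Figure D3:**
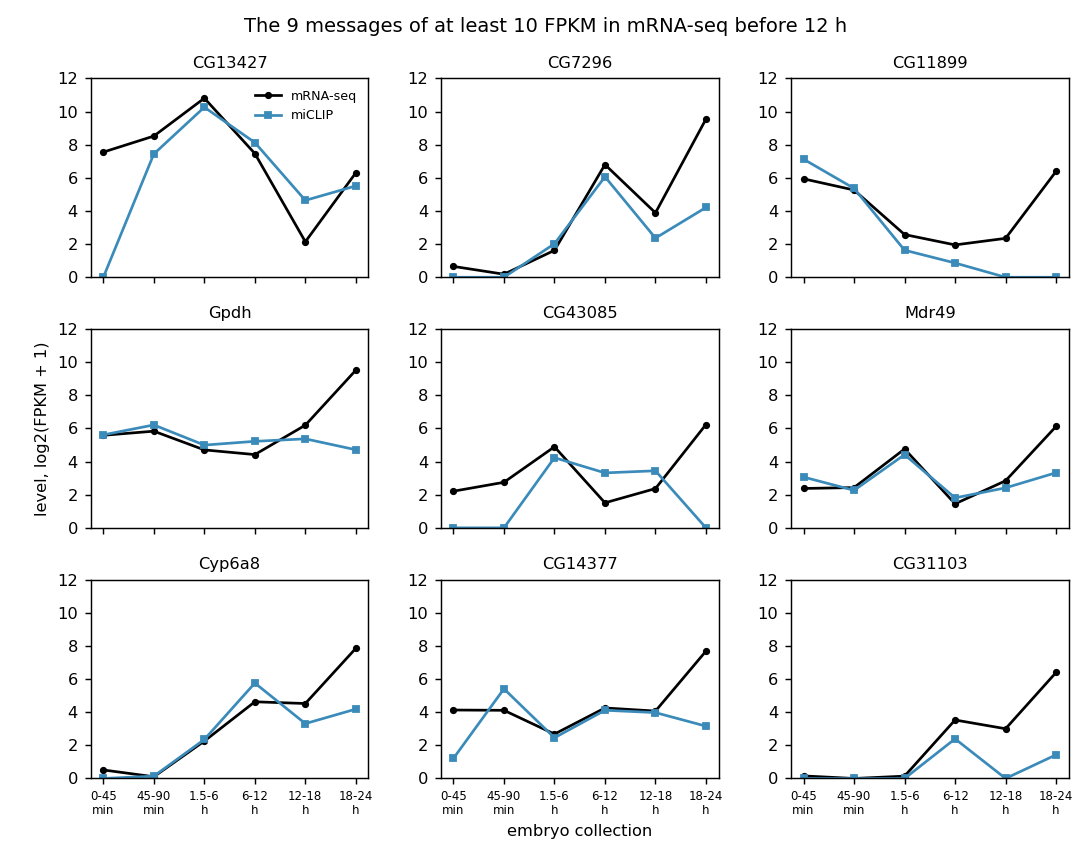
Level in log2(FPKM + 1) across the 6 embryo collections in mRNA-seq (black circles) and miCLIP (blue squares) of the 9 messages with at least 10 FPKM in mRNA-seq before 12 h, 1 library per point. *CG13427* has its highest level at 1.5 to 6 h in both assays, 1791 FPKM in mRNA-seq and 1229 FPKM in miCLIP.

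In T1 many of these messages were slightly higher than in T2. 154 of the 195 (79.0%) had a higher FPKM in T1 than in T2 and 16 a lower one, beside 40.8% of all genes and 48.6% of the other genes of at least 50 FPKM in T6 that were higher in T1. Of 1694 other genes that, like most of these messages, lay below 1 FPKM in T1 to T4 and reached 1 FPKM later, 61.9% were higher in T1 and 17.7% in T2. Jonah genes gave 626 reads in T1 and 29 in T2, at nearly equal depth. Over the 195 messages the levels of T1 and T6 mRNA-seq correlated across genes at a Spearman of 0.44, against 0.06, 0.19, 0.03 and 0.66 for T2 to T5, the genes of each pair sharing their 2 libraries and gene lengths. The muscle marker *Act57B*, which is no member, had 43.6 FPKM in T1 and 6.24 FPKM in T2, and *Mlc2*, a myosin light chain, 17.9 and 3.97 FPKM. Markers of other cell types were mixed. Higher in T1 than in T2 were *Gasp* (6.05 and 0.686 FPKM), the tracheal *verm* (6.63 and 1.46 FPKM) and *serp* (3.31 and 0.586 FPKM). The same held for the midgut marker *Myo61F* (2.29 and 0.669 FPKM) and the neuronal *nSyb* (0.488 and 0.113 FPKM). Near equal were the neuronal *elav* (1.17 and 1.32 FPKM) and the glial *nrv2* (2.06 and 2.05 FPKM). Whether the T1 library holds any late RNA was not tested.

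The library labelled 18 to 24 h miCLIP did not hold the surge. Of the 195 messages, 134 (68.7%) had no read in T6 miCLIP, beside 2.57% of the 2101 other genes of at least 50 FPKM in T6 mRNA-seq, and 50 had none in any miCLIP library. The group held 3146 of the 6210092 T6 miCLIP reads, or 0.0507% (exact 95% interval 0.0489% to 0.0525%), where its share of T6 mRNA-seq would give 324480. In T1 to T5 its share of miCLIP reads was 0.0533%, 0.0593%, 0.103%, 0.0667% and 0.110%. The shares of the 2 assays lay within a factor of 2 of each other in T1 to T5 and differed about 100-fold in T6.

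**Figure D4:**
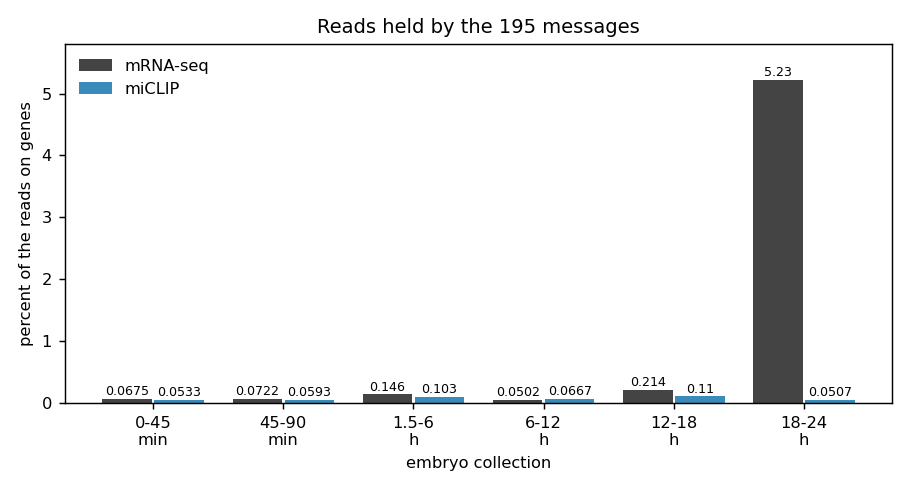
Percent of the reads on genes held by the 195 messages in each library, with mRNA-seq in grey and miCLIP in blue for the 6 embryo collections. The 2 assays lie close until 12 to 18 h (0.214% and 0.110%), and at 18 to 24 h mRNA-seq stands at 5.23% and miCLIP at 0.0507%.

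Among the 53 messages of at least 1 FPKM in both T6 libraries, 52 were over 2-fold lower in miCLIP than in mRNA-seq on the log2(FPKM + 1) scale, beside 27.3% of the 8762 genes with such values and 57.9% of the 2101 other abundant genes. The median of their log2 miCLIP to mRNA-seq ratios was -5.05, against -0.16 over all genes and -1.25 over the other abundant genes. Since the T6 mRNA-seq level chose the messages, a low ratio at T6 is in part what the choice gives. The mRNA-seq value of T6 is in the denominator for every gene here.

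The abundance of a message in T6 mRNA-seq was little guide to its miCLIP level, with a Spearman of 0.13 across the 195 genes, most of them tied at 0. *Jon99Cii*, the highest, had 78534 reads in T6 mRNA-seq and 1 in T6 miCLIP, a ratio of FPKM of 23668 (exact 95% interval 4248 to 934845, counting error only). *Jon99Fi* had 68728 and 3 reads, a ratio of 6904 (2362 to 33480). *Jon99Fii* had 48503 reads and none, which at a floor of 3 reads makes it at least 4872-fold lower in miCLIP. For *CG7299* and *CG42815*, also without a T6 miCLIP read, the log2 ratio was -11.35 and -11.18 with 1 FPKM added. *epsilonTry*, *betaTry*, *alphaTry* and *gammaTry* had no T6 miCLIP read, and *epsilonTry* was at least 1807-fold lower. All 3 PGRP-SC genes, both peritrophins, both metallothioneins, 4 of 5 lysozymes, 4 of 5 alkaline phosphatases and 10 of 15 Jonah proteases were at 0 as well.

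**Figure D5:**
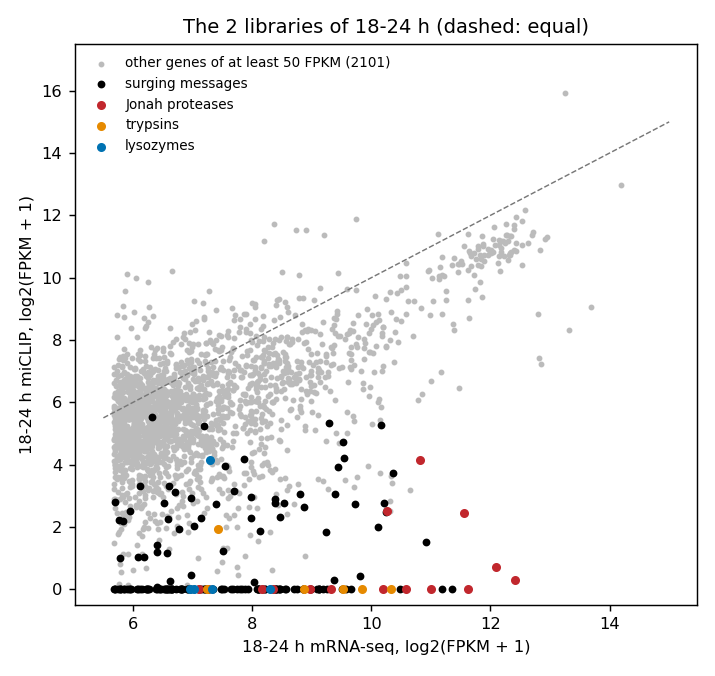
T6 miCLIP against T6 mRNA-seq in log2(FPKM + 1), 1 point per gene, for the 195 messages (black, with Jonah proteases, trypsins and lysozymes in colour) and the 2101 other genes of at least 50 FPKM in T6 mRNA-seq (grey), with equal levels dashed. Of the 195 messages 134 lie on the floor at 0 FPKM, and none lies above the dashed line.

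T6 miCLIP reads were found for 61 of the 195 messages. *CG13427* had 44.7 FPKM in T6 miCLIP and 78.2 FPKM in mRNA-seq, a log2 ratio of -0.79, the only one within 2-fold. *Muc96D* had no read in T5 miCLIP and 525 reads, or 37.1 FPKM, in T6, beside 145 FPKM in mRNA-seq. It was the single message at least 10-fold higher in T6 than in T5 miCLIP with 1 FPKM added, of 106 with at least 1 FPKM in either, beside a background of 3.06% of genes. The number was 9 with 0.1 FPKM added and 9 with none. *LysS* had 0.916 FPKM in T5 and 16.9 FPKM (42 reads) in T6 miCLIP, and was the 1 lysozyme of the group with a read there. *LysP*, outside the group, had 8.36 FPKM in T6 miCLIP and no read in T5 miCLIP. *Mdr49* and *CG4363* had 9.05 and 5.91 FPKM in T6 miCLIP, after 4.33 and 3.37 FPKM in T5. In all, 12 messages reached 10 FPKM in T6 miCLIP.

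Where miCLIP reads allowed a comparison of T5 and T6, lower values in T6 were more frequent than higher ones. Of the 195 messages 77 had no read in either library, which puts the median change over all 195 at 0.00. Of the 106 messages of at least 1 FPKM in either, 16 were over 2-fold higher in T6 than in T5 miCLIP, beside 18.5% of genes, and 72 were over 2-fold lower, beside 20.9%. With both libraries brought to 1 sum, 14 were higher and 76 lower. The median change of the 106 was -1.92 on the log2 scale, against -0.06 over all 10703 genes. Of the 145 messages with any miCLIP read, T5 was the highest library for 80, T4 for 25 and T6 for 20. The same split over all genes was not computed, so it cannot be said whether this is particular to these messages. *CG7299* went from 31.6 FPKM to no read in miCLIP while going from 33.7 to 2616 FPKM in mRNA-seq. *CG9757* went from 77.1 to 0.351 FPKM in miCLIP against 33.4 to 892 FPKM in mRNA-seq, and *MtnD* from 24.7 FPKM to no read against 2.64 to 199 FPKM. The cause was not tested.

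With T5 in place of T6, the gap between the assays was smaller, and still above the background. Of the 56 messages of at least 10 FPKM in T5 mRNA-seq, 6 had no read in T5 miCLIP, beside 0.920% of the 6631 other genes of that level, and 25 had none in T6 miCLIP. 29 were over 2-fold lower in T5 miCLIP than in mRNA-seq, beside 20.8% of the other genes, and 3 were over 2-fold higher. Their median log2 ratio was -1.11, against -0.24 for the others. Over the 92 messages of at least 1 FPKM in both T5 libraries, 27 were over 2-fold lower in miCLIP, beside 16.5% of genes. Of the same 92, 13 were over 2-fold higher, and the median ratio was -0.41, against -0.07 over all genes. The share of other genes over 2-fold higher in T5 miCLIP was not computed. The counts of higher messages therefore have no background to be read against.

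Low miCLIP in T5 was shared unevenly among the messages. *alphaTry*, with 451 mRNA-seq reads (25.3 FPKM) in T5, had no miCLIP read, nor had *epsilonTry* with 255 and *betaTry* with 208. *Jon99Ciii* had 33.2 FPKM in mRNA-seq and 0.538 FPKM in miCLIP, and *Jon99Cii* 59.1 and 6.54 FPKM. By contrast *Jon65Aiv* had 175 and 67.4 FPKM. *Fst* had 112 and 111 FPKM, and *CG9877* was higher in miCLIP, at 29.2 and 104 FPKM.

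Gene structure, which the rule did not use, was read from the Ensembl annotation of BDGP6.54. All 195 were found in it and 194 are protein-coding there. Their median coding length was 771 bases, against 1182 bases for all protein-coding genes of the table and 896 bases for the other genes of at least 50 FPKM in T6, and ranged from 123 to 4656 bases. Of the 194, 39.2% have a single exon, against 16.1% of all protein-coding genes.

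In the gene order, 81 of the 195 (41.5%) had another of these messages as their next neighbour, in 31 runs. The same held for 38.4% of the other genes of at least 50 FPKM in T6, a longer list of 2056 placed genes, and for 18.6% of the 140 genes with the opposite pattern. The longest run holds 9 genes, *thetaTry*, *alphaTry*, *epsilonTry*, *betaTry*, *gammaTry*, *CG30031*, *CG30025*, *deltaTry* and *CG13202*. In this run *CG30025* and *CG30031* had 728 and 271 FPKM in T6 mRNA-seq and no read in T6 miCLIP. Other runs of at least 3 are the Jonah clusters *Jon65Aiv* to *Jon65Ai*, *Jon25Biii* to *Jon25Bi* and *Jon99Ciii* to *Jon99Ci*, and the lysozymes *LysB*, *LysD* and *LysE*. The carrier *MFS9* beside *MtnE* and *MtnD* forms another, as do *CG12506*, *CG13946* and *CG13947*. The remaining runs are *CG13560*, *CG34105*, *CG12491* and *CG11300*, and *CG33307*, *CG33306*, *CG8997*, *CG7916* and *CG7953*. Within that last run T6 levels ranged from 99.0 FPKM (*CG7916*) to 251 FPKM (*CG8997*), and *CG8997* had 6.83 FPKM in T6 miCLIP whereas *CG33307*, *CG33306* and *CG7916* had no read. Neighbours that are copies of each other can share reads, so their likeness in level is not independent.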

How the data were processed

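mRNA-seq and miCLIP libraries from 6 embryo timepoints, 12 libraries in all, were used, each assigned by its name in the table. The authors deposited FPKM per gene for 14977 genes. By their methods, adaptors were trimmed with Flexbar, miCLIP duplicates removed with pyCRAC, reads mapped to release r5.45 of the genome with Subread-align, counted per gene by featureCounts and scaled by the DEseq package. Versions, gene lengths, strand setting and the treatment of reads that fit several copies are not given in the sources used here. A gene and its antisense partner, or near-identical copies, can therefore share or lose reads, and the summed FPKM is not fixed between libraries (782408 in T5 and 1060880 in T6 mRNA-seq).

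Genes were taken where T6 mRNA-seq was at least 50 FPKM and at least 10 times T5, and symbols that contain a colon or start with Cpr, Twdl, Ccp84A, Lcp, Osi or Obp were dropped. The members and the lists were chosen with earlier results of these data known. Named in the text are members of families of at least 2, the 10 highest in T6, the 10 with the largest change with 1 FPKM added, the 5 highest and 5 lowest ratios of miCLIP over mRNA-seq, members of at least 10 FPKM before T5, and genes nearest the limits of the rule. Others were chosen after their values were seen.

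Whole reads per gene were read off the smallest increments of its FPKM values, for 13982 genes, the other 995 having none. Tested on simulated data, the recovery was exact for 99.9% of 10944 genes with reads in at least 6 libraries and for 97.9% of the 195 messages. Recovered reads serve for depth, for floors of 3 reads and for exact Clopper-Pearson intervals at 95%, which cover counting error only, since PCR copies are not independent molecules. Ratios are log2 with 1 FPKM added, which understates changes of low genes. Nothing was tested across genes, because each assay and timepoint has 1 library. Alternatives changed the limits, the pseudocount, the scaling and the filter, and 3 of them, with T5 in place of T6 libraries, were added after the data had been seen. Python 3.11.15, pandas 2.3.3, numpy 2.4.6 and scipy 1.17.1 were used, with Ensembl 115 and RefSeq annotation of BDGP6.54 for names, coding lengths and gene order. Coordinates, protein sequences and promoters are not given or analysed here.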

Additional observations from a re-analysis of the deposited data

Results flagged for a closer look

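Where miCLIP allowed a comparison, most messages were lower in T6 than in T5 miCLIP. Of the 106 messages of at least 1 FPKM in T5 or T6 miCLIP, 72 were over 2-fold lower in T6 than in T5. The same held for 20.9% of all genes of that level, and 16 of the messages were over 2-fold higher. Another 77 messages had no read in either miCLIP library. Each message was at least 10 times higher in T6 than in T5 mRNA-seq because the rule required it, so that direction is no result. *CG15597* had 93.3 FPKM in T5 and no read in T6 miCLIP, with 8.28 and 151 FPKM in mRNA-seq, and *CG31288* had 30.8 FPKM and no read, with 6.59 and 109 FPKM. The difference between the assays was not tested, as each has 1 library per timepoint.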

How the results depend on the processing

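The number of messages was 302 with a fold of at least 5, and 132 to 241 under the other limits, pseudocount and scalings (163 with every library brought to a sum of 1000000, all 163 among the 195). Their share of T6 mRNA-seq was 5.23% of reads against 7.74% of summed FPKM, and 7.86% with the 7 dropped symbols. In miCLIP, 9 in place of 1 were at least 10-fold above T5 with 0.1 FPKM added and 9 with none, and 16 were at least 2-fold above. Over all messages 194, in place of 52 of 53, were over 2-fold lower in T6 miCLIP than mRNA-seq. The median log2 ratio of -5.05 became -5.59 with 0.1 FPKM added, -4.95 with sums scaled and -6.96 over all messages, and was -1.25 for other abundant genes. With T5 libraries, an alternative chosen after seeing the data, 27 were lower and 13 higher (the latter without a background), at a median of -0.41. In T5, 6 of 56 in place of 134 of 195 were at 0. No paired analysis was possible because each group has 1 library and the labels carry no replicate numbers. At 6210092 reads in T6 miCLIP, 3 reads correspond to 0.135 to 4.42 FPKM for these messages, so a message without a read is not detected at this depth rather than absent. Intervals leave out variation between embryo collections.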

Other observations

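Some messages had T1 miCLIP reads out of proportion to T1 mRNA-seq. *Jon99Cii* had 294 reads (37.5 FPKM) in T1 miCLIP and 107 reads (3.05 FPKM) in T1 mRNA-seq, while the other 14 Jonah messages shared 14 T1 miCLIP reads. *Mdr50* had 324 reads (8.36 FPKM) in T1 miCLIP and 15 reads (0.0866 FPKM) in T1 mRNA-seq. In T2, *Jon25Biii* had 6.85 FPKM in miCLIP and 0.197 FPKM in mRNA-seq. *CG11899* had 139 and 40.2 FPKM in T1 and T2 miCLIP, beside 60.4 and 37.4 FPKM in mRNA-seq, and no read in T5 or T6 miCLIP beside 83.0 FPKM in T6 mRNA-seq.

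Of the 7 messages set aside by name, 5 had no read in T6 miCLIP. The others were *Obp56a* (21.2 FPKM) and *Cpr67B* (9.20 FPKM).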
